A study of Danio rerio with 10 samples.

Results

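The lower dose of a mixture of persistent organic pollutants (POPs) was compared with the solvent control in whole zebrafish larvae at 5 days post fertilization (dpf). POPs are stable brominated, chlorinated and perfluorinated compounds that accumulate in tissue, and the mixture was designed after the levels found in human blood. The POP75x group holds 3 samples (replicates 2, 3 and 4) raised in medium with the mixture at 75 times the human blood level, and the control group holds 3 samples (replicates 1, 2 and 4) raised without it. All larvae were of the AB strain, were exposed or mock-exposed from the first hours of development, and had dimethyl sulfoxide (DMSO) at 0.1% in the medium in every group, so the solvent is shared by both sides of the comparison. The series has 10 samples, the other 4 being larvae at the higher dose of 125 times the human blood level (POP125x). These entered the gene filter, the fits and the clustering, and their own values are given side by side only. Each sample is the RNA of a pool of larvae. The labels give 75 larvae per pool and the methods 65. The labels speak of independent experiments but do not say which replicates share one, so the p-values measure the spread between these samples only.

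The comparison runs over genes that reach 10 normalized counts in 3 or more of the 10 samples, which are 21563 of 32520 listed genes. A normalized count is the number of reads on a gene divided by 1 size factor of the sample, and reads on genes ranged from 15555582 to 20267255 in POP75x samples and from 15516807 to 18964625 in control samples. Fold changes are differences of log2(normalized count + 1), POP75x minus control, which understates the change of genes near the minimum. In all value sentences below, the samples stand in the order POP75x replicates 2, 3 and 4, and then control replicates 1, 2 and 4.

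As background, a larva at this stage lives off its yolk, and the fuel it burns is set by a few control points. Phosphofructokinase commits glucose to glycolysis, phosphorylase kinase turns on the breakdown of glycogen, and pyruvate dehydrogenase kinases hold pyruvate back from oxidation inside the mitochondrion. Cortisol, the fish stress hormone, and insulin-like growth signals act on these points. Growth itself needs cell division, which rests on DNA replication, on kinesins that build the spindle, and on condensin and cohesin, the ring complexes that fold and hold chromosomes.

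The muscle phosphofructokinases *pfkmb* and *pfkma* were 1.97-fold and 1.80-fold higher, the pyruvate dehydrogenase kinase *pdk2b* was 3.25-fold higher, and the uncoupling protein *ucp3* was 2.70-fold higher. Genes of mitosis were on the lower side, with a negative log2 fold change in 51 of 52 tested members and a median of −0.56. Of the 52, 19 lay below control without overlap, beside 4.38% of all genes. The 8 condensin subunits had a median of −0.62. Of 13 genes of the aryl hydrocarbon receptor pathway and 43 circadian clock genes, 0 were at an unadjusted p under 0.05 with condition as the only term in the fit. The share of all genes was 5.91%, so for lists this short 0 is near that share.

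How many genes pass depends on the test. With limma over all 10 samples, 0 genes (0.00% of 21563) had a Benjamini-Hochberg adjusted p under 0.05, and the lowest adjusted p was 0.112, shared by 11 genes. At an unadjusted p under 0.05 stood 1274 genes (5.91%), a share little above the threshold itself, with 815 higher (3.78%) and 459 lower (2.13%) at POP75x. The 3 POP75x values lay entirely above the 3 control values for 1065 genes (4.94%) and entirely below for 945 genes (4.38%). With 3 samples against 3, shares of this size also arise by chance. Both criteria together held for 599 genes on the higher side and 351 on the lower. The edgeR quasi-likelihood test on the recovered reads called 0 genes as well, in both directions (0.00%), with 1353 at an unadjusted p under 0.05. The Wald test of DESeq2 on the same reads called 127 genes at an adjusted p under 0.05, 110 higher (0.510%) and 17 lower (0.0789%), of which 106 and 17 did not overlap with control. This count rests on the POP125x samples in the fit: with the 6 samples of the 2 groups alone DESeq2 called 44 genes, all among the 127, 42 higher and 2 lower. A call that ended there is given as lost beside the gene, with its adjusted p in that fit. Below, "called" refers to this DESeq2 result, named each time, and verbs of change are kept for it. Log2 fold changes and standard errors are those of limma with all 10 samples unless another fit is named. A DESeq2 adjusted p printed beside them is from a separate fit, and in that limma fit no gene had an adjusted p below 0.112. List counts from that limma fit at an unadjusted p under 0.05 are to be read beside the 3.78% of all genes higher and 2.13% lower. Scaling moved the balance: 64.0% of the genes at an unadjusted p under 0.05 were higher with the authors' size factors, and 48.5% with total reads, under which the median of all genes was −0.02 on the log2 scale.

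The libraries are not alike within the groups. Clustering of the 10 samples by average linkage gave 3 sample sets that cut across dose: set 1 holds POP75x replicate 4 and control replicate 1 with 2 POP125x samples, set 2 holds POP75x replicate 3 with control replicates 2 and 4, and set 3 holds POP75x replicate 2 with 2 POP125x samples and no control. The first principal component took 45.9% of the variance and the second 18.5%. What the sets stand for is not given in the labels. Leaving out 1 library moved the number of genes at an unadjusted p under 0.05 to 3820 without POP75x replicate 3 and 2495 without control replicate 1. It was 827 without POP75x replicate 2, 754 without control replicate 2 and 708 without control replicate 4. By direction, of 21563 genes, 2176 were higher and 1644 lower without POP75x replicate 3, and 1472 and 1023 without control replicate 1. The counts were 529 and 298 without POP75x replicate 2, and 881 and 536 without POP75x replicate 4. They were 543 and 211 without control replicate 2, and 518 and 190 without control replicate 4. List counts from these fits are to be read beside these. Of the 127 genes that DESeq2 called, 124 were also called by limma with the sample set as a term, a fit that called 769 genes higher (3.57%) and 239 lower (1.11%). At an unadjusted p under 0.05 that fit had 2620 genes higher and 2021 lower, and its list counts below are to be read beside these. The sets were drawn from the same expression values, so the smaller spread in that fit was partly built in. Its calls, here and in the lists below, are no independent support.

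Because sets 1 and 2 each hold both groups, the difference can also be read inside a set, an alternative chosen after seeing the data. In set 1 it is POP75x replicate 4 minus control replicate 1, and in set 2 POP75x replicate 3 minus the mean of control replicates 2 and 4. Over 1.5-fold in both, 468 genes were higher (2.17%) and 211 lower (0.979%), and 257 genes passed 1.5-fold in opposite directions. Single libraries stand behind these differences, so they carry no test.

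**Figure D1:**
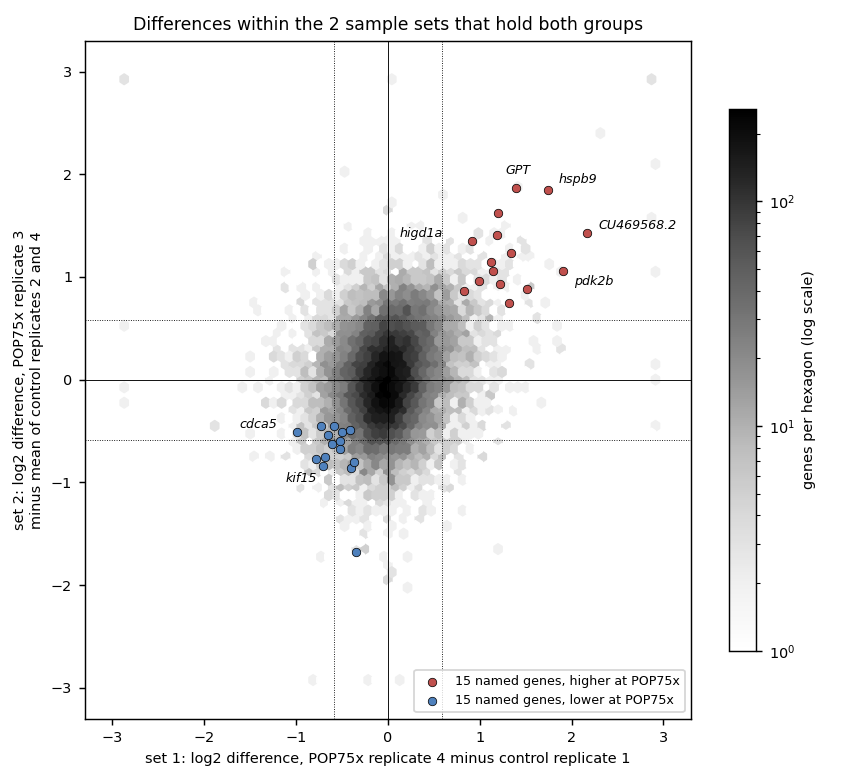
Log2 difference of POP75x and control inside sample set 1 (x axis) and inside sample set 2 (y axis), with genes per hexagon on a log scale, values beyond 2.9 drawn at 2.9, and dotted lines at 1.5-fold. The 15 named genes on the higher side (red) lie in the upper right corner past both lines, with *pdk2b* at 1.91 and 1.06, and the 15 on the lower side (blue) lie closer to the center, with *kif15* at −0.68 and −0.75. The rule for naming these genes required no overlap between groups, which fixed the sign of both differences.

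The 15 genes named first on the higher side are those of smallest limma p that averaged 50 or more and had no overlap between groups. They had log2 fold changes of 0.92 to 1.98 and limma adjusted p values of 0.112 to 0.133, and all 15 were called by DESeq2. The genes were picked by their p in the same samples, so these calls are no independent support. With edgeR the adjusted p values of the 15 were 0.113 to 0.170. The *higd1a* gene, whose product sits in the inner mitochondrial membrane and is known in mammals as induced by low oxygen, had 777, 759 and 579 normalized counts in POP75x samples, against 306, 324 and 273 in control samples. The difference on the log2 scale was 1.22 (standard error 0.15, DESeq2 adjusted p = 7.45e-10). The lowest POP75x sample stood well above the highest control sample, a gap that the rule for naming the gene favored. The *tmem86b* gene, coding for a lysoplasmalogenase that cleaves ether lipids, had 961, 830.1 and 848 normalized counts in POP75x samples, against 477, 487 and 424 in control samples, giving a log2 fold change of 0.92 with a standard error of 0.13 (DESeq2 adjusted p = 2.07e-09). The *prelid3b* gene, whose product belongs to a family that moves phospholipids between the mitochondrial membranes, had 2806, 3065 and 2535 in POP75x samples, against 1167, 1357 and 1417 in control samples, a log2 fold change of 1.09. The *cbx7a* gene, a Polycomb reader of histone marks, had 1114, 599.9 and 663 in POP75x samples, against 283, 319.8 and 310.2 in control samples, a log2 fold change of 1.32. In *cbx7a*, replicate 2 stood apart from the other POP75x samples, while *tmem86b* and *prelid3b* were even across the 3.

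Further genes of this group have little annotation. The *tmem41ab* gene had 879, 404 and 602 normalized counts in POP75x samples, against 237, 174 and 167 in control samples. The *si:dkey-247k7.2* gene had 837, 425 and 365 in POP75x samples, against 158, 136 and 139 in control samples. The *CU469568.2* gene, with the largest log2 fold change of the 15 at 1.98, had 209.8, 109.8 and 115 in POP75x samples, against 24.8, 52.8 and 30.5 in control samples. The rule that named them required the highest control sample to lie below the lowest POP75x sample. In all of them replicate 2 was the highest POP75x sample.

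Glycolysis and glucose transport were on the higher side in part of their members. Of 37 tested genes, 10 were higher and 0 lower at an unadjusted limma p under 0.05, beside 3.78% and 2.13% of all genes, and the median log2 fold change of the list was 0.13, beside 0.00 over all genes. By sample, the list median relative to the control mean was 0.01, 0.71 and 0.12 in POP75x samples, against −0.39, 0.18 and 0.14 in control samples, so the groups overlapped. Without POP75x replicate 3 the counts were 9 higher and 4 lower with a median of 0.05, and over the 6 fits that left out a library the median reached 0.29. With the sample set term 24 genes were higher and 0 lower, beside 2620 and 2021 of all 21563 genes. The *pfkmb* gene, a muscle phosphofructokinase, had 1820, 1796 and 1919 normalized counts in POP75x samples, against 962, 942 and 899 in control samples (log2 fold change 0.98, standard error 0.15). The groups were far apart and each was tight, which the rule for naming the gene favored. Its paralog *pfkma* had 5520, 6200 and 5012 in POP75x samples, against 2862, 3224 and 3205 in control samples (log2 fold change 0.85, standard error 0.15). Both rose in the DESeq2 test, with adjusted p values of 3.94e-07 for *pfkmb* and 1.32e-08 for *pfkma*. The liver and platelet type phosphofructokinases overlapped with control, at log2 fold changes of 0.13 for *pfkla*, −0.46 for *pfklb*, −0.09 for *pfkpa* and −0.02 for *pfkpb*.

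Below phosphofructokinase in the pathway, the aldolase *aldoaa* had 28175, 32945 and 22878 normalized counts in POP75x samples, against 10411, 15175 and 16509 in control samples, a log2 fold change of 1.01. Lactate dehydrogenase *ldha*, which turns pyruvate into lactate, had 9630, 11161 and 8466 in POP75x samples, against 5993, 6468 and 5681 in control samples, a log2 fold change of 0.68. Neither overlapped, which the rule for naming them required, and DESeq2 called both (adjusted p = 0.00114 for *aldoaa* and 0.00117 for *ldha*). The *pgam2* gene, the muscle phosphoglycerate mutase, was also called by DESeq2 (adjusted p = 0.0496). With the 2 groups alone all 3 calls were lost, at adjusted p values of 0.0717 for *aldoaa*, 0.143 for *ldha* and 0.215 for *pgam2*. Hexokinase *hk2*, which traps glucose in the cell, had 714, 380.4 and 484 in POP75x samples, against 303, 285 and 277 in control samples, a log2 fold change of 0.82 that DESeq2 did not call (adjusted p = 0.0636). The lactate exporter *slc16a3*, which is in none of the lists, had 1030, 878 and 818 in POP75x samples, against 512, 543 and 503 in control samples, a log2 fold change of 0.80 (DESeq2 adjusted p = 4.57e-05). Paralogs of the named enzymes stood elsewhere: *aldoab* at 8304, 19714 and 8577 in POP75x samples, against 6824, 11332 and 11544 in control samples, overlapped, and so did *ldhba*, *gapdh* and *eno3*, each with its highest value in POP75x replicate 3.

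Glycogen genes had 7 of 20 tested members higher and 0 lower at an unadjusted limma p under 0.05, beside 3.78% and 2.13% of all genes. Their median log2 fold change was 0.35. They include both directions of the pathway. For breakdown, *phka1b*, the regulatory alpha subunit of phosphorylase kinase, had 616, 428 and 608 normalized counts in POP75x samples, against 243, 254 and 256 in control samples, a log2 fold change of 1.11 (DESeq2 adjusted p = 1.87e-05). Its catalytic partner *phkg1a* had 480.3, 253 and 419 in POP75x samples, against 198, 179.9 and 159 in control samples, a log2 fold change of 1.05 (DESeq2 adjusted p = 0.0117). In both subunits replicate 3 was the lowest POP75x sample and still above control. Muscle glycogen phosphorylase *pygma* had 4608, 6212 and 4797 in POP75x samples, against 2424, 3626 and 3642 in control samples, a log2 fold change of 0.70 that DESeq2 did not call (adjusted p = 0.19). For synthesis, glycogen synthase *gys1* had 2944, 2780 and 3472 in POP75x samples, against 2114, 1766 and 1991 in control samples, a log2 fold change of 0.64, and glycogenin *gyg1a*, which primes the chain, had 871, 1056 and 1005 against 695, 679 and 622, a log2 fold change of 0.55. DESeq2 called both. The calls of *phkg1a*, *gys1* and *gyg1a* were lost with the 2 groups alone (adjusted p = 0.102, 0.242 and 0.498 in that order). The liver forms *pygl* and *gys2* overlapped with control.

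**Figure D2:**
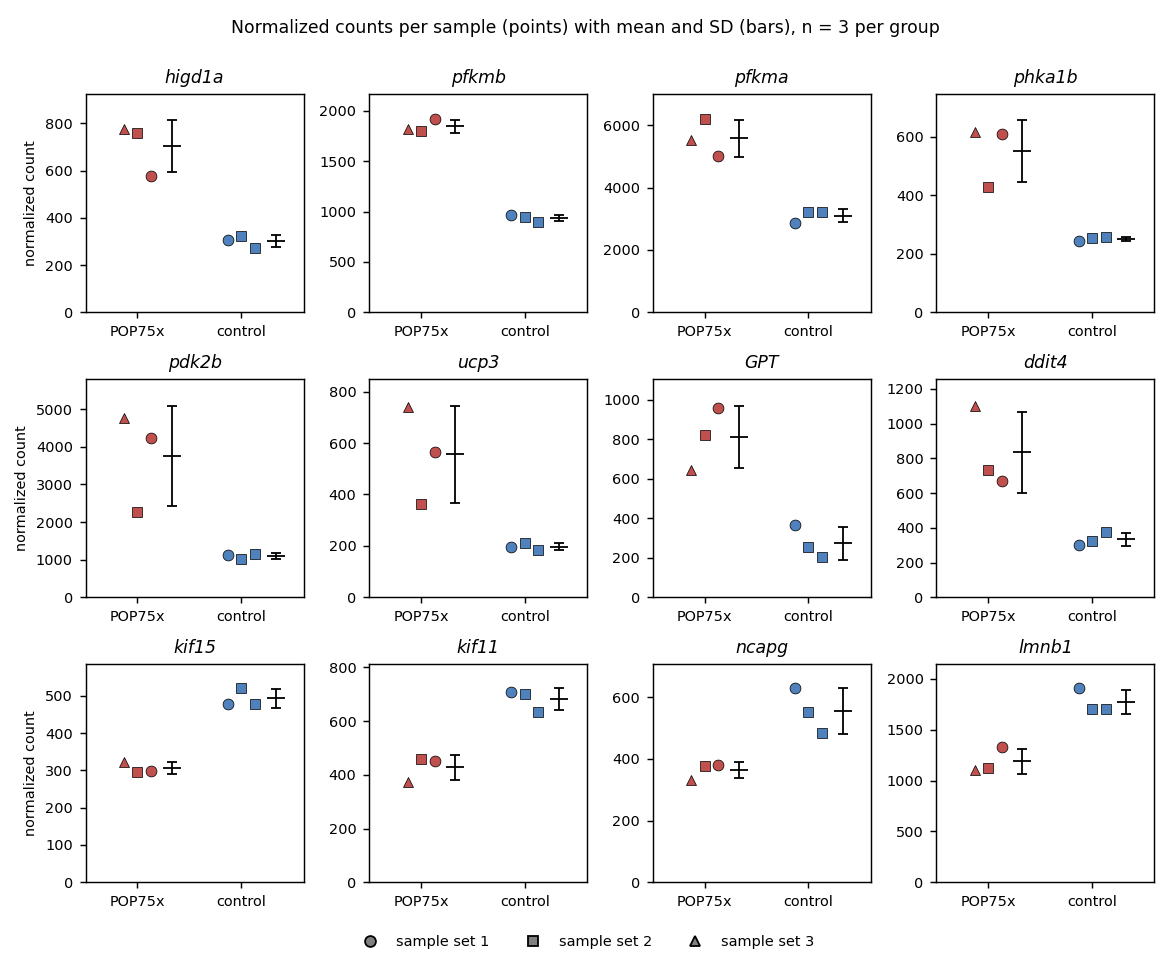
Normalized counts (y axes, from 0) of 12 genes in the 3 POP75x samples (red) and the 3 control samples (blue), with mean and SD as bars and the sample set as the point shape. In each panel the groups do not overlap, which the rule for naming these genes required. *pfkmb* stands at 1796 to 1919 in POP75x samples and 899 to 962 in control samples, and *kif15* at 296 to 324 in POP75x samples and 479 to 521 in control samples.

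The kinases and uncoupling proteins that steer pyruvate and the proton gradient followed. Pyruvate dehydrogenase kinase *pdk2b* had 4774, 2257 and 4225 normalized counts in POP75x samples, against 1125, 1016 and 1153 in control samples, or 1.70 on the log2 scale (standard error 0.29, DESeq2 adjusted p = 8.29e-06). The uncoupling protein *ucp3* had 739.6, 362 and 566 in POP75x samples, against 198, 211 and 182 in control samples, or 1.43 on the log2 scale (standard error 0.24, DESeq2 adjusted p = 1.87e-05). For both genes replicate 3 was the lowest POP75x sample, and without it the log2 fold change was 2.03 for *pdk2b* and 1.71 for *ucp3*, both at a limma adjusted p of 0.0169. The related *ucp2* had 5919, 7913 and 4994 in POP75x samples, against 2682, 3670 and 3426 in control samples, a log2 fold change of 0.93 (DESeq2 adjusted p = 0.00596, lost at 0.0941 with the 2 groups alone). The second *pdk2* copy, *pdk2a*, had 3554, 2141 and 2133 in POP75x samples, against 1442, 1469 and 1461 in control samples, a log2 fold change of 0.80 (DESeq2 adjusted p = 0.0636). In the list of 16 kinases, phosphatases, dehydrogenase subunits and uncoupling proteins, 4 were higher and 1 lower at an unadjusted limma p under 0.05, with a median log2 fold change of 0.31. The 1 on the lower side was *pdha1b*, a subunit of pyruvate dehydrogenase itself, at −0.77. The *pdk4* gene, at 1126, 373 and 926 in POP75x samples, against 664, 324 and 363 in control samples, overlapped.

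Among the lists, genes of amino acid breakdown had the largest count on the higher side at an unadjusted limma p under 0.05. Of 38 tested, 35 had a positive log2 fold change, 14 were higher at an unadjusted limma p under 0.05 and 0 lower, and the median was 0.25. The *GPT* gene (ENSDARG00000055642), an alanine transaminase that links alanine to pyruvate, had 645, 824 and 959 normalized counts in POP75x samples, against 365, 252 and 202 in control samples, or 1.59 on the log2 scale (standard error 0.25, DESeq2 adjusted p = 2.7e-05). Its relative *gpt2* had 856, 581 and 679.8 in POP75x samples, against 443, 511 and 474 in control samples, a log2 fold change of 0.55 (DESeq2 adjusted p = 0.0939). The aspartate transaminases *got1* and *got2a* both had a log2 fold change of 0.76: *got1* had 8018, 5847 and 8138 in POP75x samples, against 4573, 4260 and 4053 in control samples, and *got2a* had 1712, 1799 and 1408 against 989.6, 1020 and 879. DESeq2 called both transaminases, at adjusted p values of 0.00114 for *got1* and 0.00356 for *got2a*, and both calls were lost with the 2 groups alone (0.111 for *got1* and 0.0647 for *got2a*).

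Arginine and polyamine enzymes followed the same side. Ornithine aminotransferase *oat* had 1662, 499 and 1273 normalized counts in POP75x samples, against 473, 311 and 292 in control samples, a log2 fold change of 1.54 (DESeq2 adjusted p = 0.00356). Replicate 3 lay just above the highest control sample. Without it the log2 fold change was 2.05, and over the 6 fits that left out a library it lay between 1.18 and 2.05. Arginase *arg2*, the mitochondrial form, had 1448, 767 and 1250 in POP75x samples, against 549, 635 and 544 in control samples, a log2 fold change of 0.96 (DESeq2 adjusted p = 0.0403). Spermidine/spermine acetyltransferase *sat1a.2*, the entry to polyamine breakdown, had 1794, 1181 and 817 in POP75x samples, against 472, 565 and 599 in control samples, a log2 fold change of 1.14 (DESeq2 adjusted p = 0.0162). The glutaminase *gls2b*, at 408, 147 and 126 in POP75x samples, against 52.5, 90 and 68.9 in control samples, did not overlap but was not called by DESeq2 (adjusted p = 0.146). With the 2 groups alone the calls of *oat* (adjusted p = 0.0521), *arg2* (0.134) and *sat1a.2* (0.0717) were lost.

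New glucose can be made from such carbon, and 2 of 9 gluconeogenesis genes were higher at an unadjusted limma p under 0.05, with 0 lower and a list median of 0.20. Glucose-6-phosphatase *g6pca.1*, the last step of glucose release, had 202, 291 and 262 normalized counts in POP75x samples, against 115, 116 and 98.5 in control samples, or 1.18 on the log2 scale (standard error 0.21, DESeq2 adjusted p = 0.000502). Phosphoenolpyruvate carboxykinase *pck1* had 11086, 22172 and 9540 in POP75x samples, against 3170, 8173 and 7942 in control samples, or 1.17 on the log2 scale (standard error 0.40, DESeq2 adjusted p = 0.233). Inside the sample sets *pck1* was higher by 1.59 and 1.46 on the log2 scale, and without control replicate 1 the difference was 0.72. The *fbp1a* and *fbp1b* genes overlapped with control.

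Of 28 fatty acid oxidation genes, 3 were higher and 0 lower at an unadjusted limma p under 0.05, with a median of 0.16. Muscle carnitine palmitoyltransferase *cpt1b*, which carries long fatty acids into the mitochondrion, had 749.9, 886 and 898 normalized counts in POP75x samples, against 458, 535 and 531 in control samples, a log2 fold change of 0.73 (DESeq2 adjusted p = 0.00345). The electron carrier *etfa* had a log2 fold change of 0.36. Among 23 genes of PPAR and RXR receptors and their targets, 3 were higher and 0 lower, with a median of 0.18: lipoprotein lipase *lpl* had 1258, 1388 and 1356 in POP75x samples, against 949, 1004 and 952 in control samples, a log2 fold change of 0.46 (DESeq2 adjusted p = 0.016). Neither *cpt1b* (adjusted p = 0.0889) nor *lpl* (0.621) was called with the 2 groups alone. The lipase inhibitor *angptl4*, at 0.65, and the receptor *pparda*, at 0.44, were not called by DESeq2. Without POP75x replicate 3, 5 fatty acid oxidation genes were higher and 2 lower, and 7 PPAR and RXR genes were higher and 2 lower. In that fit 2176 of all 21563 genes were higher and 1644 lower. Without POP75x replicate 2, 1 PPAR and RXR gene was higher, and without control replicate 4, 1 fatty acid oxidation gene. Monocarboxylate transporters had 4 of 15 tested members higher and 0 lower, with a median of 0.34, and of the 4 only *slc16a4* (0.34) did not overlap. The count was 9 without POP75x replicate 3, with 1 lower, and 1 without POP75x replicate 2 or 4 or without control replicate 2 or 4.

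In the respiratory chain list, 3 of 74 genes were higher and 0 lower at an unadjusted limma p under 0.05. Beside 3.78% and 2.13% of all genes, these counts are near the shares. The list median was 0.22. The samples differed more than the groups: the median log2 level of the list, relative to the control mean, was −0.21, 0.89 and −0.07 in the POP75x samples and −0.34, 0.20 and 0.14 in the control samples. Without POP75x replicate 3 the list median was −0.14, with 0 genes higher and 2 lower, and 8 genes were higher without POP75x replicate 2 or 4. With the sample set term, 67 of the 74 genes were higher and 0 lower at an unadjusted limma p under 0.05, with a median of 0.51, and 45 were called. In that fit 2620 of all 21563 genes were higher and 2021 lower, and 769 (3.57%) were called higher. Within the sets, 67 genes were higher in set 1 (median difference 0.24) and 74 in set 2 (0.74). Cytosolic ribosomal proteins behaved alike, with medians of −0.36, 0.88 and −0.54 in POP75x samples, against −0.55, 0.28 and 0.27 in control samples, and 0 of 77 genes at an unadjusted limma p under 0.05 in either direction (list median 0.01, and −0.45 without POP75x replicate 3). With the sample set term 59 of the 77 were higher and 0 lower, with a median of 0.40 and 7 called, and within the sets the median difference was 0.01 in set 1 and 0.63 in set 2.

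**Figure D3:**
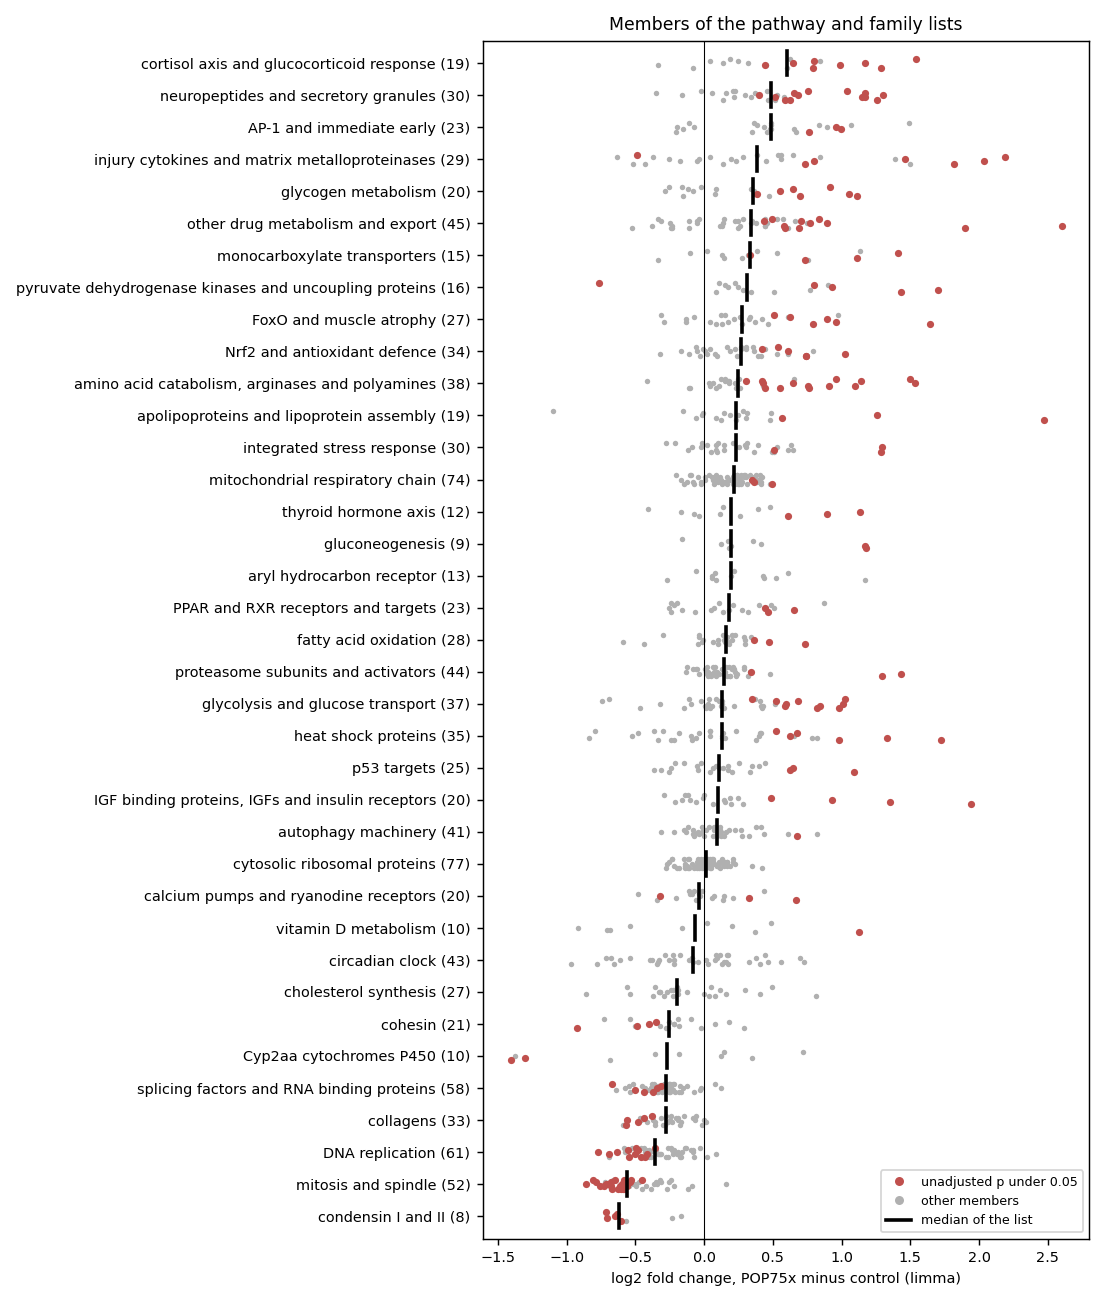
Log2 fold change, POP75x minus control, of the tested members (points) of 37 pathway and family lists, ordered by the list median (black bar), with the number of tested members in parentheses. Red points mark an unadjusted limma p under 0.05: they lie on the right for amino acid catabolism (14 of 38) and neuropeptides (13 of 30), and on the left for mitosis and spindle (25 of 52).

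The hormone genes that act on these enzymes were read as 3 lists. Of 19 tested genes of the cortisol axis and the glucocorticoid response, 8 were higher and 0 lower at an unadjusted limma p under 0.05, with a median of 0.61. This count was 4 without POP75x replicate 2 and 4 without control replicate 1. The *ddit4* gene, an inhibitor of the growth kinase complex mTORC1, had 1103, 729.9 and 670.0 normalized counts in POP75x samples, against 302, 327 and 375 in control samples, or 1.29 on the log2 scale (standard error 0.20, DESeq2 adjusted p = 1.87e-05). The chaperone *fkbp5*, a glucocorticoid target that feeds back on the receptor, had 5106, 3201 and 4414 in POP75x samples, against 2015, 2068 and 2207 in control samples, a log2 fold change of 0.99 (DESeq2 adjusted p = 0.0118). Neither overlapped, which the rule for naming them required, and *fkbp5* was even across the controls. The factor *cebpd* had 2792, 1556 and 1628 in POP75x samples, against 755, 1312 and 1345 in control samples, a log2 fold change of 0.80 that DESeq2 did not call (adjusted p = 0.346). The receptor *nr3c1* was at 1496, 1152 and 1226 in POP75x samples, against 1385, 1333 and 1363 in control samples, and overlapped.

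Among the 20 tested insulin-like growth factors, their binding proteins and insulin receptor genes, 4 were higher and 0 lower at an unadjusted limma p under 0.05, with a median of 0.10. The pair of *igfbp1* copies, coding for a secreted protein that binds and withholds the growth factor and is known to rise in fasting and low oxygen, gave the largest differences. The *igfbp1b* gene had 377, 396 and 219 normalized counts in POP75x samples, against 36.3, 107 and 145 in control samples, or 1.94 on the log2 scale (standard error 0.45, DESeq2 adjusted p = 0.0125), and 1.36 without control replicate 1. The *igfbp1a* gene had 1628, 668 and 790.2 in POP75x samples, against 255, 424 and 476 in control samples, or 1.35 on the log2 scale (standard error 0.32, DESeq2 adjusted p = 0.0143). Neither overlapped, which the rule for naming them required, and control replicate 1 was the lowest sample of both. Both calls were lost with the 2 groups alone (adjusted p = 0.0711 for *igfbp1b* and 0.121 for *igfbp1a*). Without POP75x replicate 2 the list count was 2 and its median −0.02, and without POP75x replicate 3 the count was 6, with 1 lower. The insulin receptor substrate *irs2b* was at 0.48.

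In the FoxO and muscle atrophy list, 6 of 27 genes were higher and 0 lower at an unadjusted limma p under 0.05, with a median of 0.28. The endoplasmic reticulum autophagy receptor *retreg1* had 115, 69.3 and 119 normalized counts in POP75x samples, against 42.9, 25.4 and 26.6 in control samples, or 1.64 on the log2 scale (standard error 0.29, DESeq2 adjusted p = 0.000593). The muscle ubiquitin ligase *fbxo32*, known as atrogin-1, had 133, 105 and 108 in POP75x samples, against 69.7, 68.5 and 42.3 in control samples, a log2 fold change of 0.96 (DESeq2 adjusted p = 0.321). It did not overlap and was not called. The other atrophy ligase, *trim63a*, overlapped at 711, 367 and 338 in POP75x samples, against 331, 378 and 406 in control samples. Log2 fold changes were 0.89 for *klhl38b* and 0.62 for *txnipa*. The list count was 2 without POP75x replicate 2 and 13 without POP75x replicate 3. Of 12 thyroid axis genes, 3 were higher and 0 lower with a median of 0.20, among them *dio2* (1.13), *trh* (0.90) and *dio3b* (0.61). The count was 1 higher without POP75x replicate 3 or without control replicate 1 or 2. Another 1 was lower without POP75x replicate 3 or without control replicate 1.

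Among 35 heat shock genes, 6 were higher and 0 lower at an unadjusted limma p under 0.05, with a median of 0.13 (3 higher without control replicate 2), and the members called by DESeq2 were small heat shock proteins. The *hspb9* gene had 221, 266 and 332 normalized counts in POP75x samples, against 98.3, 78.2 and 68.9 in control samples, or 1.72 on the log2 scale (standard error 0.30, DESeq2 adjusted p = 6.34e-05). The *hspb6* gene had 1719, 1930 and 2745 in POP75x samples, against 976, 731 and 795 in control samples, a log2 fold change of 1.33 (DESeq2 adjusted p = 0.00851). The large heat-inducible *hsp70l* overlapped, at 548, 503 and 643 in POP75x samples, against 613, 263 and 284 in control samples. The co-chaperone *bag3* was at 0.63 and *hspb7* at 0.68, both without overlap and not called by DESeq2.

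The integrated stress response list, which follows the factor Atf4, had 3 of 30 genes higher and 0 lower, with a median of 0.23, and apart from *ddit4* its named member *sesn2* was at 0.51. The count was 8 without POP75x replicate 3 and 6 without control replicate 1, each with 1 lower, and 1 without POP75x replicate 2. The p53 target list had 3 of 25 higher and 0 lower, with a median of 0.11. The pro-apoptotic *pmaip1*, known as Noxa, had 137, 90.6 and 110.4 normalized counts in POP75x samples, against 45.8, 52.8 and 57.1 in control samples, a log2 fold change of 1.09 (DESeq2 adjusted p = 0.0125), while the classical targets *cdkn1a* and *mdm2* overlapped. Immediate early genes had 3 of 23 higher and 0 lower with a median of 0.48, and without control replicate 1 the median was 0.17 with 1 gene higher and 1 lower. The *nr4a1* gene had 642, 799 and 1004 in POP75x samples, against 506, 478 and 432 in control samples, a log2 fold change of 0.77, and *fosb* was at 0.99, neither called by DESeq2. Of 34 genes of Nrf2 and antioxidant defence, 6 were higher and 0 lower with a median of 0.27: *prdx1* had 1081, 1403 and 812 in POP75x samples, against 596, 724 and 614 in control samples, a log2 fold change of 0.74 (DESeq2 adjusted p = 0.0498), and *hmox1a* (1.03) and *gclm* (0.61) did not overlap but were not called. Neither *pmaip1* (adjusted p = 0.0941) nor *prdx1* (0.527) was called with the 2 groups alone. With the sample set term, 22 of the 34 Nrf2 and 12 of the 30 integrated stress genes were higher, and 1 integrated stress gene was lower. These stand beside 2620 higher and 2021 lower of all 21563 genes. The Nrf2 count of 6 was 3 without POP75x replicate 2 or control replicate 4, and 10 without POP75x replicate 4. Without POP75x replicate 3 it was 9, with 3 lower.

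For injury cytokines and matrix metalloproteinases, 6 of 29 tested genes were higher and 1 lower, with a median of 0.38. The gelatinase *mmp9* had 1115, 185 and 319 normalized counts in POP75x samples, against 100.2, 128 and 116 in control samples, or 1.81 on the log2 scale (standard error 0.60, DESeq2 adjusted p = 0.0399). The limma adjusted p of *mmp9* was 0.666. Without POP75x replicate 2 its log2 fold change was 1.08, and of the list 1 gene was higher and 1 lower. Without POP75x replicate 3, 11 were higher and 0 lower. The *socs3a* gene was at 0.73, and the membrane metalloproteinase *mmp15a* (ENSDARG00000051962) at −0.49. Of 44 proteasome genes, 3 were higher and 0 lower, with a median of 0.14. The activator *psme4a* had 1593, 446 and 674 in POP75x samples, against 266, 319 and 285 in control samples, a log2 fold change of 1.43 (DESeq2 adjusted p = 0.0281, lost at 0.0717 with the 2 groups alone), and *psme2*, an interferon-induced activator in mammals, was 2.45-fold higher and not called by DESeq2. Autophagy machinery had 1 of 41 genes higher, *optn* at 0.68, and 0 lower, with a median of 0.09. Without POP75x replicate 4, 7 proteasome genes were higher, beside 881 of all 21563 genes. Without POP75x replicate 3, 4 autophagy genes were higher, beside 2176 of all 21563, a similar share.

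Genes for handling foreign compounds were read by family. The aryl hydrocarbon receptor pathway senses dioxin-like compounds. Of its 13 tested genes, 0 were at an unadjusted limma p under 0.05 in either direction, beside 5.91% of all genes. The list median was 0.20, with 11 of 13 positive and 2 above control without overlap, beside 4.94% of all genes. There were 3 higher without POP75x replicate 3, and 2 higher and 1 lower without control replicate 1. The best known target of the receptor, *cyp1a*, had 7041, 2389 and 436 normalized counts in POP75x samples, against 283, 1568 and 1438 in control samples. The lowest POP75x sample was below the higher controls, and the standard error of the log2 fold change of 1.17 was 1.11. The *cyp1b1*, *cyp1c1* and *cyp1c2* genes overlapped as well. Of 45 genes of other drug metabolism and export, 11 were higher and 0 lower, beside 3.78% and 2.13% of all genes, with a median of 0.34. Without POP75x replicate 3 the counts were 13 higher and 9 lower.

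The cytochrome P450 gene *cyp2k18* had 2030, 1345 and 784 normalized counts in POP75x samples, against 213, 418 and 465 in control samples, or 1.90 on the log2 scale (standard error 0.38, DESeq2 adjusted p = 0.000864). The related *cyp2k6* (ENSDARG00000098995) had 45.7, 101 and 119 in POP75x samples, against 16.2, 9.78 and 12.8 in control samples, or 2.60 on the log2 scale (standard error 0.57, DESeq2 adjusted p = 0.00189). The limma adjusted p of *cyp2k6* was 0.343. The Cyp2k genes are close copies, so reads shared among them could be split by the counting. The bile salt export pump *abcb11b* had 454, 551 and 523 in POP75x samples, against 279.6, 307 and 306 in control samples, a log2 fold change of 0.77 (DESeq2 adjusted p = 0.0118). The sulfotransferases *sult2st1* (0.84, DESeq2 adjusted p = 0.0458) and *sult2st3* (0.70, DESeq2 adjusted p = 0.0466), which add sulfate to steroids, were also called. With the 2 groups alone *abcb11b* (adjusted p = 0.0608), *sult2st1* (0.0608) and *sult2st3* (0.608) were not.

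The Cyp2aa family was split. Of 10 tested members, 2 were lower and 0 higher at an unadjusted limma p under 0.05, with a median of −0.27. By the sign of the log2 fold change 6 were lower and 4 higher, and within each of sets 1 and 2 it was 5 and 5. With the sample set term 3 were lower and 3 higher. Over the 6 fits that left out a library, 1 to 3 were lower and 0 or 1 higher. The *cyp2aa8* gene had 70, 329 and 287 normalized counts in POP75x samples, against 532, 478 and 493 in control samples, or −1.41 on the log2 scale (standard error 0.49), and *cyp2aa3* had 14, 42.6 and 51.8 against 92.6, 74.3 and 72.9 (standard error 0.47 on the log2 scale). Both were lowest in replicate 2, and neither was called by DESeq2 (adjusted p = 0.429 for *cyp2aa8* and 0.453 for *cyp2aa3*). In vitamin D metabolism, 1 of 10 genes was higher and 0 lower, with a median of −0.07. That gene is *cyp24a1*, the enzyme that breaks down active vitamin D, with 934, 748 and 620.2 in POP75x samples, against 254, 431 and 379 in control samples, or 1.13 on the log2 scale (standard error 0.24, DESeq2 adjusted p = 0.0101, lost at 0.0608 with the 2 groups alone).

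Hepatic lipase *lipca*, among the 11 genes at the lowest limma adjusted p (0.112), had 52.2, 41.6 and 28.3 normalized counts in POP75x samples, against 4.77, 5.87 and 8.86 in control samples. The difference on the log2 scale was 2.47 (standard error 0.39, DESeq2 adjusted p = 0.000282), on few reads in the control samples. The rest of the 19 apolipoprotein and lipoprotein genes gave 3 higher in all, *lipca* included, and 0 lower, with a median of 0.23, and the transfer protein *cetp* at 0.57. The count was 5 without POP75x replicate 4, with 1 lower, and 1 without POP75x replicate 2. Of 27 cholesterol synthesis genes, 0 were at an unadjusted limma p under 0.05 in either direction, with a median of −0.20. Without POP75x replicate 3, 3 were higher and 2 lower, beside 2176 and 1644 of all 21563 genes, similar shares.

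Neuropeptide and secretory granule genes were among the lists with the largest share on the higher side, with 13 of 30 higher and 0 lower at an unadjusted limma p under 0.05, 27 of 30 with a positive log2 fold change and a median of 0.49. The count was 8 without POP75x replicate 2. Galanin, *galn*, a hypothalamic peptide that promotes feeding and sleep, had 138, 95.9 and 105 normalized counts in POP75x samples, against 35.3, 52.8 and 52.2 in control samples, or 1.26 on the log2 scale (standard error 0.25, DESeq2 adjusted p = 0.00439). The opioid precursor *pdyn* had 185, 77.8 and 104 in POP75x samples, against 46.8, 55.7 and 48.2 in control samples, a log2 fold change of 1.17 (DESeq2 adjusted p = 0.0252). These are the 2 genes of the list that DESeq2 called, and both calls were lost with the 2 groups alone (adjusted p = 0.0521 for *galn* and 0.258 for *pdyn*).

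Feeding peptides stood on the same side without being called. Neuropeptide Y, *npy*, had 40.1, 43.7 and 40 normalized counts in POP75x samples, against 8.59, 19.6 and 24.6 in control samples, 2.46-fold higher (DESeq2 adjusted p = 0.183). Agouti-related peptide *agrp*, which also drives feeding, had 42, 73.5 and 33.2 in POP75x samples, against 21.9, 17.6 and 22.6 in control samples, a log2 fold change of 1.15. The list also holds *cart3* (1.17), of a family that lowers feeding in mammals, and proglucagon *gcga* (0.63), the source of a hormone that raises blood glucose. The granule proteins *vgf* (1.04) and *scg2b* (0.65) did not overlap either, whereas *chga*, at −0.35, lay below control in all 3 samples.

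**Figure D4:**
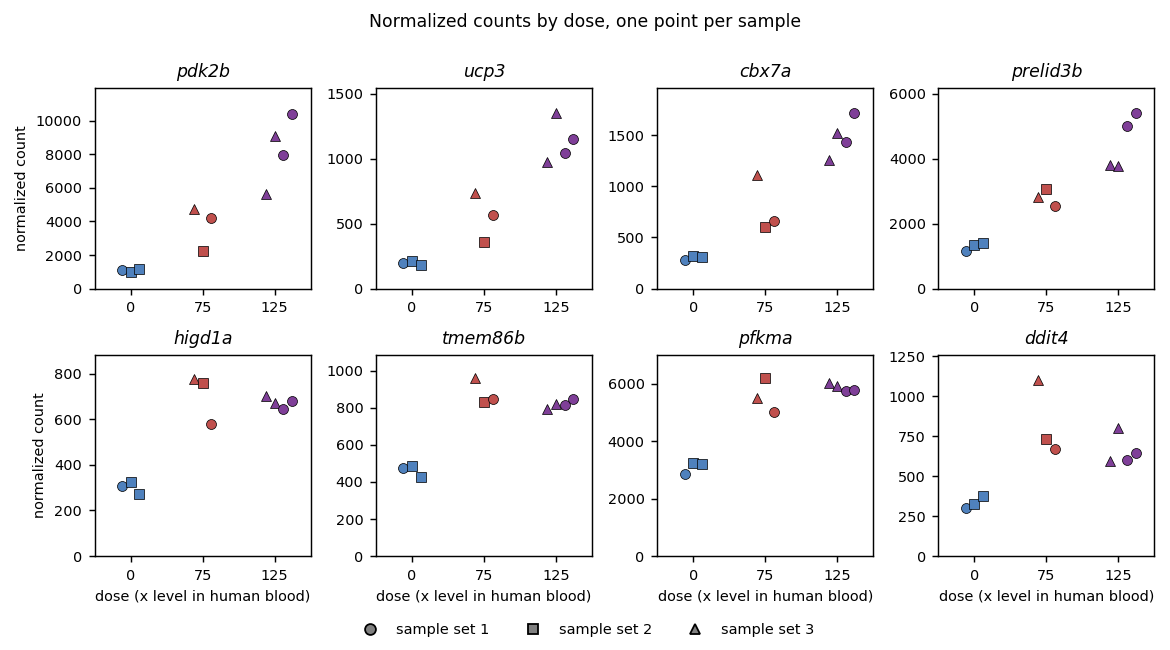
Normalized counts (y axes, from 0) of 8 genes by dose in the order control (0), POP75x (75) and POP125x (125), 1 point per sample, with the sample set as the point shape. In the upper row the 4 POP125x samples lie above all POP75x samples, for *pdk2b* at 5627 to 10423, and in the lower row they do not, for *higd1a* at 643 to 701 beside 579 to 777 at POP75x.

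Set side by side with the higher dose, the named genes on the higher side fell into different shapes, given here as a description since both doses share the control samples. For 5 of the 15 genes (*cbx7a*, *pdk2b*, *prelid3b*, *ucp3* and the unannotated ENSDARG00000086739) all POP125x samples lay above all POP75x samples. For the other 10 the doses overlapped, and for 6 of these (*higd1a*, *tmem86b*, *si:dkey-247k7.2*, *ddit4*, *GPT* and *CU469568.2*) the POP125x mean was no higher than the POP75x mean. In *ucp3*, for example, control samples had 182 to 211 normalized counts, POP75x samples 362 to 739.6 and POP125x samples 972 to 1349. In *ddit4*, control samples had 302 to 375, POP75x samples 670.0 to 1103 and POP125x samples 593 to 799.

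On the lower side, the 15 named genes had log2 fold changes of −1.06 to −0.56 and limma adjusted p values of 0.264 to 0.492, and 8 of them were called by DESeq2 with all samples. With the 2 groups alone 0 of these 8 were called, at adjusted p values of 0.0608 for *CABZ01058261.1*, 0.115 for *kif15*, 0.257 for *iqgap3*, 0.438 for *lmnb1*, 0.468 for *hcfc2*, 0.497 for *cdca5*, 0.518 for *kif23* and 0.608 for *map2k6*. Of the 15, *kif11*, *kif15* and *kif23* are mitotic kinesins, *ncapg* is a condensin subunit, *cdca5* codes for sororin, which protects cohesin on sister chromatids, and *lmnb1* codes for lamin B1 of the nuclear envelope. The *kif15* gene had 324, 296 and 298 normalized counts in POP75x samples, against 479, 521 and 479 in control samples, or −0.69 on the log2 scale (standard error 0.14, DESeq2 adjusted p = 0.00215). The spread inside each group was small beside the gap, which the rule for naming the gene favored. The *cdca5* gene had 57.8, 100.2 and 66.4 in POP75x samples, against 133, 148 and 138 in control samples, a log2 fold change of −0.93 (DESeq2 adjusted p = 0.0464). The *lmnb1* gene had 1103, 1127 and 1330 in POP75x samples, against 1910, 1707 and 1702 in control samples, a log2 fold change of −0.58 (DESeq2 adjusted p = 0.0124).

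The remaining genes of this group have other roles or little annotation. *CABZ01058261.1* had 377 to 547 normalized counts in POP75x samples, against 816 to 1071 in control samples, a log2 fold change of −0.95 (DESeq2 adjusted p = 0.00216). The stress kinase *map2k6*, which activates p38, had 901, 1104 and 979 in POP75x samples, against 1300, 1504 and 1590 in control samples, a log2 fold change of −0.56 (DESeq2 adjusted p = 0.0473). DESeq2 with all samples called both, as it did *hcfc2* (−0.73), a paralog of host cell factor, and *iqgap3* (−0.74), a scaffold protein linked to proliferation. The 5 not yet named are *sclt1* (−0.57), a protein of the centriole appendages that carry the cilium, *PDZD4* (ENSDARG00000090564, −0.69), *zgc:86764* (−0.60), *CABZ01070631.2* (−0.73) and *si:dkey-217f16.6* (−1.06), none of them called by DESeq2. Of the 15, all POP125x samples lay below all POP75x samples for 2 (*map2k6* and *zgc:86764*). They lay above all POP75x samples for 3 (*CABZ01070631.2*, *sclt1* and *si:dkey-217f16.6*), and for 10 the doses overlapped. The *si:dkey-217f16.6* gene had 92.5 to 146 normalized counts in POP125x samples, beside 40.5 to 74.2 in POP75x samples and 94.5 to 133 in control samples.

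Mitosis and spindle genes formed the list with the largest number of members at an unadjusted limma p under 0.05. Of 52 tested, 25 were lower and 0 higher, beside 2.13% and 3.78% of all genes. On the lower side 19 did not overlap, beside 4.38% of all genes. In these bulk samples, fewer dividing cells and less RNA per cell cannot be told apart. By sample, the median log2 level of the list relative to the control mean was −0.84, −0.18 and −0.59 in POP75x replicates 2, 3 and 4, and between −0.03 and 0.05 in the control samples, so replicate 3 was the nearest to control. The count was 14 without POP75x replicate 2, 39 without POP75x replicate 3 and 16 without control replicate 4, and the list median lay between −0.71 and −0.37 over the 6 fits that left out a library. Within the sample sets, the median difference was −0.52 in set 1 and −0.14 in set 2.

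Single mitotic genes show how uneven this was. The kinesin *kif11*, which pushes the spindle poles apart, had 374, 459 and 450.3 normalized counts in POP75x samples, against 709, 702 and 636 in control samples, or −0.68 on the log2 scale (standard error 0.17, DESeq2 adjusted p = 0.0517). The kinesin *kif23*, needed for the last step of division, had 242, 312 and 305 in POP75x samples, against 432, 433 and 456 in control samples, or −0.63 on the log2 scale (standard error 0.15), and is the 1 gene of the list that DESeq2 called with all samples (adjusted p = 0.0313), and not with the 2 groups alone (0.518). In both, all POP75x samples were clear of control, which the rule for naming them required. Topoisomerase *top2a*, with 991, 1224 and 1250 in POP75x samples, against 1905, 1732 and 1602 in control samples, was at −0.60, and the spindle protein *hmmr* at −0.68. The mitotic kinase *plk1*, at 287, 567 and 377 in POP75x samples, against 569.7, 593 and 556 in control samples, and cyclin *ccnb1*, at 163, 442 and 216 against 325, 459.6 and 416, overlapped because of POP75x replicate 3.

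All 8 condensin subunits had a negative log2 fold change, 5 of them at an unadjusted limma p under 0.05, beside 2.13% of all genes lower. Without overlap were 4, beside 4.38% of all genes. The list median was −0.62 and lay between −0.67 and −0.55 without any 1 library, and within the sample sets it was −0.52 in set 1 and −0.42 in set 2. The condensin I subunit *ncapg* had 333, 378 and 379.9 normalized counts in POP75x samples, against 629.9, 553 and 483 in control samples, or −0.60 on the log2 scale (standard error 0.16). The kleisin of condensin I, *ncaph*, had 234, 224 and 211 in POP75x samples, against 353, 379 and 361 in control samples, or −0.71 on the log2 scale (standard error 0.20). The core ATPase *smc2*, shared by both complexes, had 616, 446 and 514 in POP75x samples, against 904, 769.6 and 785 in control samples, or −0.65 on the log2 scale (standard error 0.19). In these 3 genes POP75x replicate 3 was as far below control as the other POP75x samples. Over the whole list it was the nearest to control. By sample, the list median relative to the control mean was −0.68, −0.36 and −0.65 in POP75x samples. It was −0.12, 0.13 and 0.00 in control samples. The condensin I subunit *ncapd2* was at −0.71 with overlap, the shared *smc4* at −0.57, and the condensin II subunits were at −0.63 for *ncapd3*, −0.23 for *ncapg2* and −0.16 for *ncaph2*. DESeq2 called 0 of the 8, with adjusted p values of 0.0637 for *ncapg* and 0.144 for *ncaph*.

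DNA replication genes had 12 of 61 lower and 0 higher at an unadjusted limma p under 0.05, beside 2.13% and 3.78% of all genes. Of the 61, 59 were negative, and the median was −0.36. The count depended on the library left out: it was 4 without POP75x replicate 4, 3 without control replicate 2 and 5 without control replicate 4, and 23 without POP75x replicate 3 and 22 without control replicate 1. By sample, the list median relative to the control mean was −0.39, −0.04 and −0.64 in POP75x samples, against −0.30, 0.19 and 0.14 in control samples. The groups thus overlapped, and within set 2, 21 genes were higher and 40 lower. DNA polymerase alpha subunit *pola2* had 197, 232 and 194 normalized counts in POP75x samples, against 274, 313 and 324 in control samples, or −0.55 on the log2 scale (standard error 0.15). The origin firing factor *ticrr* had 149, 223 and 211 in POP75x samples, against 262, 333 and 339.7 in control samples, a log2 fold change of −0.69, with *pola1* at −0.48 and the clamp loader *rfc1* at −0.36. The replicative helicase subunit *mcm2* and the clamp *pcna* overlapped, *pcna* at 1778, 3621 and 1896 in POP75x samples, against 2336, 3370 and 3264 in control samples. DESeq2 called 0 of the list.

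Of 21 cohesin subunits and regulators, 4 were lower and 0 higher, with a median of −0.26. The core subunit *smc3* had 2881, 2996 and 2935 normalized counts in POP75x samples, against 3638, 4230 and 4564 in control samples, or −0.49 on the log2 scale (standard error 0.14, DESeq2 adjusted p = 0.02), with all POP75x values within a narrow range below control. The other called member is *cdca5*, given above, and with the 2 groups alone neither was called (adjusted p = 0.679 for *smc3* and 0.497 for *cdca5*). The loader *nipblb* was at −0.35 and *pds5a* at −0.40. The count was 2 without POP75x replicate 2 or without control replicate 2 or 4. Splicing factors and RNA binding proteins had 6 of 58 lower and 0 higher, with a median of −0.27, among them *hnrnpub* with 3745, 3276 and 3543 in POP75x samples, against 4693, 4583 and 4982 in control samples, or −0.43 on the log2 scale (standard error 0.14, DESeq2 adjusted p = 0.0621). Without POP75x replicate 3, 32 of the 58 were lower, and 15 without control replicate 1, but 1 without control replicate 2 or 4 and 2 without POP75x replicate 2. By sample, the list median relative to the control mean was −0.45, 0.02 and −0.42 in POP75x samples. It was −0.23, 0.11 and 0.11 in control samples, so the groups overlapped.

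Collagens had 5 of 33 lower and 0 higher, beside 2.13% and 3.78% of all genes, with 32 of 33 negative and a median of −0.28. The count was 15 lower without POP75x replicate 3, 2 without POP75x replicate 2 and 3 without any 1 control. Basement membrane collagen *col4a2* had 1548, 1840 and 2004 normalized counts in POP75x samples, against 2278, 2797 and 2905 in control samples, or −0.57 on the log2 scale (standard error 0.17). Cartilage collagens *col11a1b* (−0.48) and *col9a3* (−0.44) did not overlap with control, nor did *col6a3* (ENSDARG00000077139) at −0.38. The bone and skin collagen *col1a1a* overlapped, at 36407, 96114 and 49800 in POP75x samples, against 52761, 69599 and 67021 in control samples. DESeq2 called 0 collagens. Calcium pumps and ryanodine receptors had 2 of 20 higher and 1 lower, with a median of −0.03: *atp2a2a*, the calcium pump of heart and slow muscle, had 2162, 2579 and 1848 in POP75x samples, against 1012, 1532 and 1658 in control samples, a log2 fold change of 0.67 (DESeq2 adjusted p = 0.233), *srl* was at 0.32 and *atp2b1b* at −0.32.

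The larvae were whole, and the marker lists of all 14 tissues and cell types examined had reads in every sample. Exocrine pancreas enzymes summed to between 31680 and 176540 in POP75x samples and between 28111 and 110370 in control samples, and the trypsin gene *prss1* had 3826, 15763 and 3506 in POP75x samples, against 3429, 9734 and 10433 in control samples. The samples of set 2, POP75x replicate 3 and control replicates 2 and 4, were the high ones. Lens genes were the reverse, summing to between 14230 and 77425 in POP75x samples and between 16229 and 49718 in control samples, with *crybb1* at 7856, 288 and 2028 in POP75x samples, against 2117, 503 and 610.5 in control samples. The median of the 26 lens genes was 0.53 over all samples, 1.53 without POP75x replicate 3, and −0.16 and −0.54 within sets 1 and 2. The part that tissue makeup played in the lists above was not tested.

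**Figure D5:**
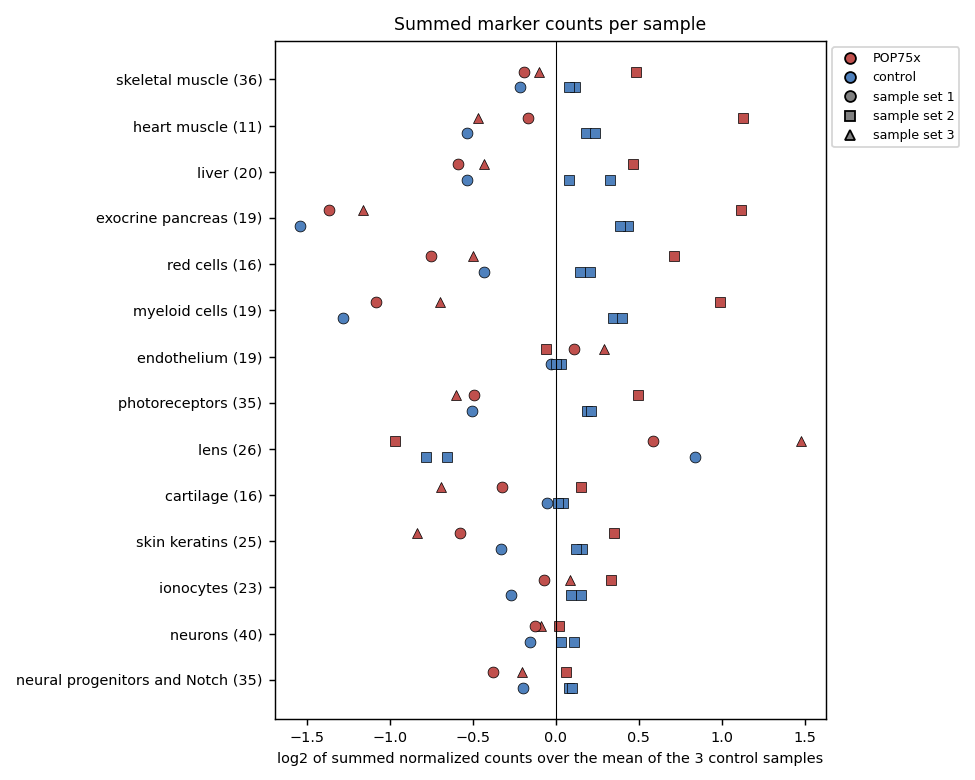
Log2 of the summed normalized counts of 14 marker lists, relative to the mean of the 3 control samples (x axis), for POP75x samples (red, upper) and control samples (blue, lower), with the sample set as the point shape and the number of tested genes in parentheses. Squares (set 2) lie to the right for exocrine pancreas and to the left for lens in both groups.

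The first marker counts here are from the fit with condition as the only term, where 3.78% of all genes were higher and 2.13% lower. For lists this short, 0 or 1 gene is near those shares. At an unadjusted limma p under 0.05 were 0 of 11 heart muscle, 0 of 19 exocrine pancreas, 0 of 16 red cell and 0 of 35 photoreceptor genes in either direction. For skeletal muscle 1 of 36 was higher and 0 lower (median 0.05), for liver 0 of 20 higher and 1 lower (0.14), for myeloid cells 1 of 19 higher and 0 lower (0.26), for lens 1 of 26 higher and 0 lower, for skin keratins 1 of 25 higher and 0 lower (−0.22), and for cartilage 0 of 16 higher and 1 lower (−0.20). Heart muscle, exocrine pancreas, red cells and photoreceptors had medians of 0.19, −0.24, −0.10 and −0.15. Without POP75x replicate 3, 7 exocrine pancreas, 7 photoreceptor, 6 red cell, 6 cartilage, 4 liver and 9 skin keratin genes were lower. In that fit 9 lens, 5 endothelium, 4 heart muscle, 4 skeletal muscle, 4 myeloid, 2 skin keratin and 1 photoreceptor genes were higher. A further 1 skeletal muscle and 1 endothelium gene were lower. Neurons had 6 higher and 7 lower, and ionocytes 5 and 2. These stand beside 2176 higher and 1644 lower of all 21563 genes. With the sample set term, 16 skeletal muscle genes were higher and 4 lower, 9 liver, 8 exocrine pancreas and 8 skin keratin genes were higher, and 14 lens genes were lower. Of the same lists 2 skin keratin genes were lower and 1 lens gene higher, beside 2620 higher and 2021 lower of all genes. Endothelium had 1 of 19 higher, *plvapb* at 0.42, and 0 lower (median 0.08).

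Ionocytes, the ion-transporting cells of the larval skin, had 3 of 23 higher and 1 lower, with a median of 0.07. The sodium pump subunit *atp1b1b* had 2583, 2008 and 2332 normalized counts in POP75x samples, against 1610, 1431 and 1410 in control samples, or 0.63 on the log2 scale (standard error 0.17, DESeq2 adjusted p = 0.0448), and is the 1 marker of the 14 lists that DESeq2 called, a call lost with the 2 groups alone (0.274). The sodium chloride cotransporter *slc12a10.2* was at 0.50, and the carbonic anhydrase *ca4b* at −1.34. Among 40 neuron markers, 1 was higher and 2 lower, with a median of −0.06: *gad2*, which makes the transmitter GABA, had 4135, 2180 and 3130 in POP75x samples, against 2085, 1861 and 1731 in control samples, a log2 fold change of 0.69, and the neurofilament *nefmb* was at −0.44. Of 35 neural progenitor and Notch genes, 0 were higher and 1 lower, the ligand *dla* at −0.47, with 29 of 35 negative and a median of −0.22, and 14 were lower without POP75x replicate 3 and 7 without control replicate 1. By sample, the list median relative to the control mean was −0.40, 0.01 and −0.34 in POP75x samples. It was −0.09, 0.08 and 0.04 in control samples, so the groups overlapped.

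Of 43 circadian genes, 0 were at an unadjusted limma p under 0.05 in either direction, beside 5.91% of all genes, with a median of −0.08. Without POP75x replicate 3, 3 were higher, beside 2176 of all 21563 genes. With the sample set term 2 were higher and 9 lower, beside 2620 and 2021 of all genes. By sample the list median relative to the control mean was 0.03, −0.23 and 0.17 in POP75x samples, against 0.04, −0.04 and −0.01 in control samples. Single members varied more, as in 2 genes picked for it. The repressor *nr1d1* had 288, 2215 and 2679 normalized counts in POP75x samples, against 1710, 2488 and 3037 in control samples, and *per1b* had 684, 2932 and 3425 in POP75x samples, against 3153, 2892 and 3315 in control samples. POP75x replicate 2 was far below the other POP75x samples in both genes, which in zebrafish larvae cycle over the day. The sampling hour of the pools is not in the labels, and its part in the results was not tested.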

How the data were processed

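The methods describe single-end sequencing of stranded mRNA, then mapping to GRCz11 and counting by an nf-core workflow. The authors deposited normalized counts, the signal of each gene being its reads divided by 1 size factor per sample, with replicates kept apart. Whole reads were recovered from them (100% of values within a tolerance of 0.001 reads). Deposited columns of the authors' comparisons hold means, fold changes and p-values and were not used. limma 3.58.1 in R 4.3.3 was fitted on log2(value + 1) with an intensity trend, all 10 samples and condition as the only term, with Benjamini-Hochberg adjustment over 21563 genes, and tested on simulated data. DESeq2 1.42.0 and edgeR 4.0.16 ran on recovered reads. The alternatives were other pseudocounts, filters, scalings and tests, a replicate block, a sample set term, and each replicate left out.

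Named genes are every gene past the limma threshold, in each direction the 15 genes of smallest p that averaged 50 or more and did not overlap, up to 4 members per list at an unadjusted p under 0.05 with no overlap and their paralogs, and up to 10 per direction called by edgeR and by DESeq2 with all samples and with 2 groups. Other genes were chosen after their values were seen. The members, the 51 lists (1443 of 1535 genes tested) and the rules were chosen with earlier results of these data known. Genes below the minimum were left out. Plots used matplotlib 3.10.9. Gene names and identifiers are those of the deposited table, and no sequences or coordinates were used here.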

Additional observations from a re-analysis of the deposited data

Results flagged for a closer look

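The small heat shock gene *hspb9* had 1 POP125x sample far from the other 3: its lowest value was 217.5 normalized counts and the nearest other value 440.4, a gap of 0.837 of the range of that group. In groups of this size, chance flags about 1 in 20. The POP75x samples, at 221, 266 and 332, and the control samples, at 98.3, 78.2 and 68.9, are groups of 3 and were not examined for such gaps.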

How the results depend on the processing

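The number of genes at an adjusted p under 0.05 was 0 with limma as reported, with a fold change over 1.5 as a further condition, with other pseudocounts, filters, scalings and variance settings, with voom, with the 6 samples of the 2 groups alone, and with edgeR. It was 127 with DESeq2, 44 with DESeq2 on 2 groups, 1008 with the sample set as a term, and 0 to 5 with each replicate left out in turn, the 5 without POP75x replicate 3 being *tmem41ab*, *pdk2b*, *oat*, *ucp3* and *phka1b*. At an unadjusted p under 0.05 stood 1274 genes as reported, 772 with the 2 groups alone, 4641 with the sample set term, and 708 to 3820 with each replicate left out. Whether same-numbered samples share an experiment is not in the labels. Their deviations from the group means correlated at −0.25 for number 2 and −0.41 for number 4. Such correlations of expression cannot decide that question. With the replicate number as a block, limma called 0 genes (2792 at an unadjusted p under 0.05) and DESeq2 177 (2426). Of the 127 genes that DESeq2 called without the block, 65 were among these 177 and 62 were lost. On the lower side 2 of 17 were kept.

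Among the 127 named genes, 56 passed the threshold with DESeq2, 24 with DESeq2 on the 2 groups alone, 38 with DESeq2 and the replicate block, 90 with the sample set term and 5 without POP75x replicate 3. With the 2 groups alone, 0 of the 9 named calls on the lower side remained, and with the block 1, *CABZ01058261.1*. Of the 51 lists, 35 kept the sign of their median under TMM, total reads, the sample set term and each library left out. The 16 that did not were 10 of the 14 tissue marker lists and ribosomal proteins, respiratory chain, proteasome, cholesterol synthesis, calcium pumps and insulin-like growth factor genes. The comparison has 3 samples per group from sample sets that differ, and for genes with few reads, such as *lipca*, counting adds to the error.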
